A study of Mus musculus with 9 samples.

Results

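The small leucine-rich proteoglycans are secreted proteins of the extracellular matrix, and 10 of their genes (Ogn, Aspn, Dcn, Lum, Fmod, Bgn, Prelp, Omd, Chad and Kera) were followed among the 54532 genes of the deposited count table. They were taken by symbol and were chosen by their read counts in these same libraries, so that their differences between stages are given as a description. The libraries were RNA-seq libraries of lambdoidal junction tissue, the place where the facial prominences meet and fuse into the upper lip and primary palate, from C57BL/6J mouse embryos. Tissue was taken on embryonic day 10.5 (E10.5) and on each of the following 2 days (E11.5, then E12.5). Each of the 3 stages has 3 libraries, made from the pooled tissue of several embryos, so that differences between single embryos were not measured. No treatment or mutation is given, and the stages are compared as the tissue passes from before to after fusion. The step from E10.5 to E11.5 is called the first interval and the step from E11.5 to E12.5 the second, and counts are listed in the order of the stages and, within a stage, of replicates 1 to 3.

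A small leucine-rich proteoglycan consists of a core protein with a cluster of cysteines near its N-terminus, a row of leucine-rich repeats that bends into an arch, and, in most members, chains of chondroitin, dermatan or keratan sulfate. The arch binds collagen fibrils and limits how they grow in width, and several members also bind growth factors of the TGF-beta family or cell surface receptors. In the developing face these genes are known from loose mesenchyme, dermis, tendon, cartilage and bone.

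The spacing of the 4 cysteines is the feature by which the family is divided into classes, and the coding bases of this cluster are shown for 6 of the genes because genes with large and with small changes are found in the same class. The bases were read from the coding exons of GRCm38, 5′ to 3′ on the coding strand, and the cysteine codons are in capitals. The positions are chr13:49551865-49551906 for Aspn, chrX:73490979-73491020 for Bgn, chr10:97568353-97568403 for Lum, chr13:49589659-49589709 for Omd, chr13:49615566-49615604 for Ogn and chr11:94565161-94565208 for Chad, all on the plus strand and each within 1 coding exon.
Aspn: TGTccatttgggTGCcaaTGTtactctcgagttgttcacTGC
Bgn: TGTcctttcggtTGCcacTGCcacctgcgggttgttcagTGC
Lum: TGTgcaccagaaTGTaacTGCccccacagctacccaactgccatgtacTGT
Omd: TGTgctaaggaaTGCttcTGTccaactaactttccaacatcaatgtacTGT
Ogn: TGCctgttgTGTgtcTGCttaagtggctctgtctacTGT
Chad: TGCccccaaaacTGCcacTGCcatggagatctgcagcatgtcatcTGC
Aspn, Dcn and Bgn had 3, 1 and 6 residues between successive cysteines, the spacing of class I. Lum, Fmod, Prelp, Omd and Kera had 3, 1 and 9 (class II), Ogn had 2, 1 and 6 (class III), and Chad had 3, 1 and 8 (the non-canonical class IV). Their coding regions ranged from 298 codons in Ogn to 423 in Omd.

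The total count per library was 16581009 to 20836804. E10.5 replicate 3 stood apart from the other E10.5 libraries, with an SD of the log2 difference over genes of 0.703 and 0.711 against replicates 2 and 1, where the other pairs of replicates gave 0.373 to 0.591. Over 16363 genes, which are not independent replicates, its differences correlated with transcript GC content (Spearman's rho = -0.563). Among the 10 genes this library was above the mean of E10.5 replicates 1 and 2 by 1.08 on the log2 scale in Dcn, 0.70 in Fmod and 0.62 in Lum, and it differed by -0.85 in Bgn. Their GC content was 37.4% in Dcn, 53.7% in Fmod, 41.9% in Lum and 51.2% in Bgn. The median over genes was 49.7%, so that Fmod went against the correlation. In E10.5 replicate 3 the summed CPM (counts scaled to a common library size by TMM) of 11 facial mesenchyme markers was 1341. It was 2159 and 2191 in the other E10.5 libraries. The sum of 10 epithelial markers was 818.5, against 450.9 and 510.1. All 11 facial mesenchyme markers had more than 3 counts in at least 1 library of every stage.

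All 10 genes were higher at E12.5 than at E11.5 and at E10.5 in every library. In bulk tissue, more cells of a type and more RNA per cell cannot be told apart. The genes differed in when the higher level was reached and in how large the difference was. Lum and Bgn were already the main members at E10.5, and Lum changed 3.06-fold and Bgn 5.72-fold from E10.5 to E12.5. Ogn and Aspn had fewer than 10 reads in each E10.5 library, and at E12.5 they made up 42.2% ± 2.02 (SD, n = 3) of the FPKM summed over the 10 genes.

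**Figure D1:**
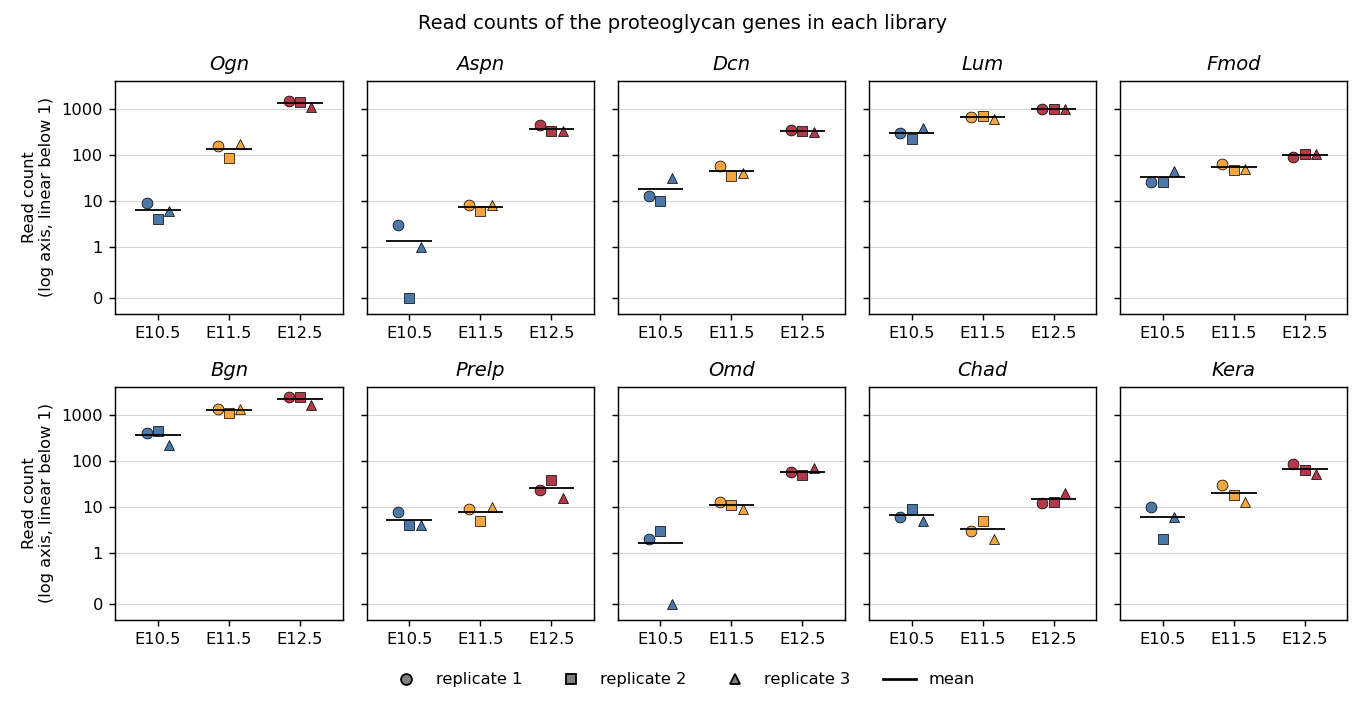
Read counts of each of the 10 genes (vertical axis, log scale above 1 and linear below) in the 3 libraries of each stage (horizontal axis). Each marker is 1 library and the line is the mean of 3, and every E12.5 library lies above every E11.5 library in all 10 panels, with the widest step in Aspn, from 6 to 8 reads to 322 to 454 reads.

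Class I holds the core proteins with chondroitin or dermatan sulfate chains, and among these Bgn (biglycan), which binds collagen and BMPs, had the most reads. Its counts were 414, 452 and 224, then 1370, 1103 and 1362, then 2450, 2402 and 1681. The stages did not overlap, and at E10.5 the library that stood apart was the lowest. In CPM the level was 21.5 ± 6.70 (SD, n = 3), 66.1 ± 11.4 and 122.5 ± 19.8. The log2 fold change of CPM was 1.62 (SE 0.24) in the first interval and 0.88 (SE 0.16) in the second, so that 44.1% of the whole gain in CPM came in the first, the highest share of the 10 genes. Without E10.5 replicate 3 the first of these was 1.38.

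Dcn (decorin), which coats collagen fibrils and binds TGF-beta, had 13, 10 and 32 reads, then 56, 34 and 41, then 344, 335 and 321. The 3 libraries of E12.5 lay close together and far above the rest, while the highest E10.5 library, again replicate 3, came within 2 reads of the lowest E11.5 library and overlapped it in CPM. The level in CPM was 1.11 ± 0.759, 2.27 ± 0.695 and 18.8 ± 0.704, and 93.5% of the gain came between E11.5 and E12.5. The log2 fold change was 1.03 (SE 0.48) in the first interval and 3.05 (SE 0.21) in the second.

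Aspn (asporin), a close relative of decorin that lacks the usual attachment site for the chain and carries a run of aspartates, 4 long in the coding sequence used here, gave the widest step. It had 3, 0 and 1 reads, then 8, 6 and 8, then 454, 322 and 336. The first 2 stages had few reads, and the last lay far above both. From E11.5 to E12.5 the log2 fold change was 5.77 (SE 0.26), from 0.380 ± 0.0794 to 21.0 ± 4.19 CPM. Against the 4 reads of E10.5 in all, the ratio of CPM was 4.73 at E11.5 (95% exact counting interval 1.61 to 18.9) and 263 at E12.5 (102 to 967), and these intervals cover counting error only.

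Class II holds the keratan sulfate members. Lum (lumican), which sets the spacing of collagen fibrils in cornea and skin, had 305, 217 and 385 reads, then 661, 703 and 612, then 975, 990 and 969. The stages did not overlap, and the step between them was even, with 42.2% of the CPM gain in the first interval and 57.8% in the second. Its CPM was 18.2 ± 5.62, 33.8 ± 1.66 and 55.3 ± 2.24, with log2 fold changes of 0.90 (SE 0.22) and 0.70 (SE 0.12).

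Fmod (fibromodulin), a regulator of collagen fibril growth in tendon, had 26, 26 and 45 reads, then 65, 46 and 49, then 90, 103 and 107. E10.5 and E11.5 overlapped in CPM and E12.5 lay above both. The log2 fold change was 0.51 (SE 0.33) in the first interval and 1.03 (SE 0.23) in the second, the latter close to the threshold of 1.

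Kera (keratocan) is best known from the cornea, where it is made by keratocytes. Its counts were 10, 2 and 6, then 30, 18 and 13, then 88, 64 and 53, with no overlap between stages. The log2 fold change was 1.53 (SE 0.58) and 1.87 (SE 0.35). Of the 12 eye markers, the corneal epithelium markers Krt12 and Aldh3a1 had at most 3 counts in every library, and the summed CPM of the list was 71.5 to 104, then 27.0 to 33.4, then 43.8 to 52.4, so that the eye markers were highest at the stage where Kera was lowest.

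Omd (osteomodulin), a bone matrix member, lies beside Aspn and Ogn on chromosome 13. It had 2, 3 and 0 reads, then 13, 11 and 9, then 57, 50 and 69. Each stage lay above the one before it. The CPM ratio against the 5 reads of E10.5 was 5.68 (2.20 to 18.6) at E11.5 and 33.3 (14.0 to 104) at E12.5, and the log2 fold change of E12.5 vs. E11.5 was 2.54 (SE 0.32).

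Prelp, which links basement membranes to the collagen below them, was low throughout, with 8, 4 and 4 reads, then 9, 5 and 10, then 23, 39 and 16. The first 2 stages overlapped, and E12.5 was above both with the widest relative spread among the 10 genes at that stage, 1.45 ± 0.589 CPM. The log2 fold change of E12.5 vs. E11.5 was 1.80 (SE 0.45). Of its exon bases 9.68% are shared with the antisense gene Gm15851, and whether reads were counted by strand is not given in the sources used here.

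Ogn (osteoglycin or mimecan), the class III member, is known from bone and cornea. It had 9, 4 and 6 reads, then 153, 87 and 171, then 1488, 1379 and 1096. Each stage lay far above the one before it. In CPM it went from 0.379 ± 0.151 to 7.13 ± 2.59 and 74.4 ± 9.23, with log2 fold changes of 4.21 (SE 0.43) and 3.38 (SE 0.25), and 7.60 (SE 0.30) over both. Of its gain in CPM, 9.12% fell in the first interval.

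Chad (chondroadherin), a cartilage member of class IV that binds integrins, was the one gene of the 10 whose E11.5 libraries all lay below those of E10.5 in CPM. Its counts were 6, 9 and 5, then 3, 5 and 2, then 12, 13 and 20. These are few reads, and it was removed by the low-count filter in the first interval. The log2 fold change was 2.27 (SE 0.52) in the second interval and 1.10 (SE 0.49) over both. The summed CPM of 12 cartilage markers was 813 to 1190, then 582 to 711, then 625 to 841, with Snorc at 3 counts or fewer in every library. Most of this sum was Col2a1, at 687.1, then 401.8, then 376.2 CPM on average. The E12.5 libraries of Col2a1 all lay below those of E10.5, whereas Chad had its highest counts at E12.5. Of the 10 cartilage markers tested over both intervals, 3 were upregulated (Acan, Matn4 and Cnmd), against 9.97% of all genes tested. Downregulated were 2, Matn3 (log2 fold change -2.38, SE 0.36) and Hapln1 (-1.29, SE 0.27), against 5.08% of all genes tested. The part of these markers in the values of Chad was not tested.

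A gene was called upregulated when its log2 fold change reached 1 and its adjusted p-value in edgeR's quasi-likelihood test (Benjamini-Hochberg) did not exceed 0.05. In E11.5 vs. E10.5, 6 of the 10 genes passed the low-count filter (Aspn, Prelp, Omd and Chad did not) and 2 of these, Ogn and Bgn, were called, where 3.46% of all genes tested were upregulated and 2.61% downregulated. All libraries of E11.5 lay above all of E10.5 in 4 of the 6, against 18.4% of all genes tested. Without E10.5 replicate 3 the calls were 4, with Dcn at a log2 fold change of 1.74 and Lum at 1.15 added.

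In E12.5 vs. E11.5 all 10 passed the filter and 8 were called, all but Lum and Bgn, where 4.14% of all genes tested were upregulated and 0.962% downregulated. The later libraries lay above the earlier ones in all 10, against 18.4% of all genes tested, and the median log2 fold change of the 10 was 2.07, against 0.0187 over all genes tested. The calls of Ogn, Aspn, Dcn and Omd were made with any library left out. The number of calls was 5 when replicate 2 of E11.5 was left out, 5 for replicate 3 of that stage and 4 for replicate 1 of E12.5. Over the 6 ways to leave out a library, Chad was lost in 5 (all but replicate 2 of E12.5), Prelp in 4 (any library of E11.5 and replicate 1 of E12.5), Fmod in 4 (replicates 2 and 3 of E11.5, 1 and 3 of E12.5) and Kera in 1 (replicate 1 of E12.5). Bgn was called when replicate 3 of E12.5 was left out, at a log2 fold change of 1.00.

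In E12.5 vs. E10.5 all 10 passed the filter and 9 were called, all but Chad, where 9.97% of all genes tested were upregulated and 5.08% downregulated, and all 10 had no overlap between the stages, against 22.0% of all genes tested. The same 9 were called with any library left out. Since the 10 genes were chosen with these counts known, no test was made over them. The 3 comparisons share libraries, so that a high E11.5 level enters both intervals with opposite signs.

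**Figure D2:**
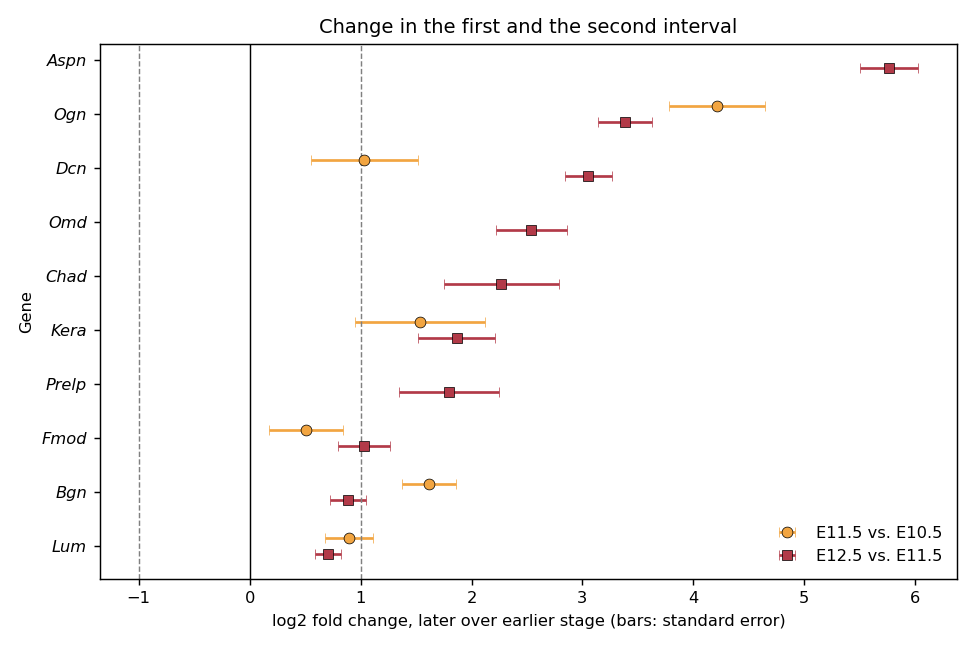
Log2 fold change (horizontal axis) of each gene in E11.5 vs. E10.5 (circles) and E12.5 vs. E11.5 (squares), with bars of 1 standard error and dashed lines at the threshold of 1. Aspn, Omd, Chad and Prelp have no circle because they did not pass the filter in the first interval, and Ogn has the highest circle (4.21) while Aspn has the highest square (5.77).

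Because a long gene collects more reads, the genes were compared with each other by deposited FPKM, which is a level per length. The summed FPKM of the 10 genes was 12.3 ± 1.61 (SD, n = 3), then 29.5 ± 3.41, then 88.3 ± 6.65. Lum and Bgn held 88.2% ± 0.993 of it, then 83.1% ± 2.93, then 47.7% ± 1.48. The share of Ogn and Aspn went the other way, from 1.43% ± 0.687 to 9.72% ± 2.73 and 42.2% ± 2.02. Lum and Bgn did not decrease in level, and their smaller share at E12.5 came with higher levels of the others.

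At E10.5 the order in FPKM was Lum (7.35), Bgn (3.50) and Fmod (0.583), each apart from the next, and the other 7 genes, from Chad (0.234) down to Aspn (0.0335), overlapped with their neighbours. At E11.5 Lum (13.7), Bgn (10.7) and Ogn (2.76) were apart, and Fmod, Kera, Dcn and Omd followed in an overlapping row, then Aspn, Prelp and Chad in another. By E12.5 Ogn was first (28.6), above Lum (22.3) and Bgn (19.8), which overlapped with each other, and Aspn (8.77) and Dcn (3.18) came next, each apart from its neighbours. Fmod, Kera and Omd overlapped between 1.46 and 1.69, and Chad (0.502) and Prelp (0.395) were last and overlapped. The order by CPM per kilobase was the same in every stage, but it rests on the same counts and gene lengths and is no separate check.

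**Figure D3:**
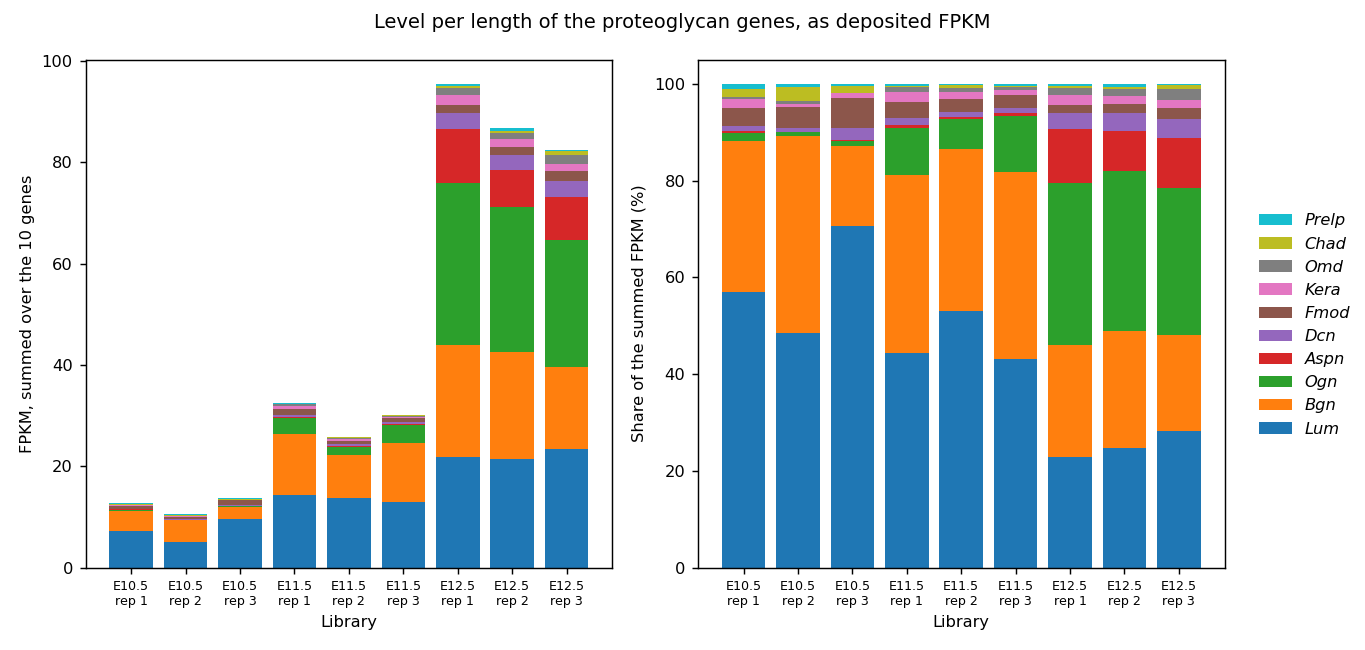
Deposited FPKM of the 10 genes in each library, stacked (left), and each gene's share of the sum in percent (right). Lum and Bgn fill most of each E10.5 and E11.5 bar, and Ogn and Aspn together take 40.7 to 44.5% of each E12.5 bar.

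Over the 9 libraries, Pearson's r of log2 CPM between pairs of the 10 genes was 0.307 to 0.676 for pairs with Chad and 0.764 to 0.977 for all others, with Dcn and Fmod the closest pair. These libraries share 3 stages and any 2 genes that increase in time correlate over them, and the value describes this order only. The genes closest to Ogn were Cav1 (r = 0.998), Emp2 and Gsn, and 427 genes had an r above 0.95 with it. Closest to Aspn was Egfl6 (r = 0.990), at 2.68 ± 0.699, 7.02 ± 1.51 and 64.5 ± 10.98 CPM over the stages, followed by Nts and Gstm1. Closest to Bgn were Col6a2 (r = 0.996) and Col6a1 (r = 0.995), which encode chains of the microfibrillar type VI collagen that biglycan binds, then Cyp26b1. Dcn was closest to Vgll3 (r = 0.996), Bdh2 and 1190002N15Rik, and Lum to Armh4 (r = 0.991), Hist1h2bc and Pik3ip1. Fmod was closest to Cd9 (r = 0.984), Gal3st1 and Stx7, Omd to Efemp2 (r = 0.994), Igfbp3 and Atp6ap1, and Kera to Cd1d2 (r = 0.985), Pcdhb6 and Gstt1. Prelp (Gm2115, r = 0.981, then Flnc) had 15 genes above 0.95 and Chad (Sst, r = 0.942, then Cthrc1 and Gm11478) had none. With a prior count of 0.5 the 3 genes given for Omd ranked 6, 125 and 19, and none stayed among its 3 closest.

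Most of the genes sit in clusters, given here in GRCm38 as the count table lists them. On chromosome 13, Ecm2 (chr13:49504810-49532789), Aspn (chr13:49544443-49567565), Omd (chr13:49582462-49592822) and Ogn (chr13:49608046-49624501) follow each other on the plus strand within 119.7 kb. All lie inside the gene body of Cenpp, a centromere gene on the minus strand, whose log2 fold changes were -0.44 (SE 0.30) and 0.00 (SE 0.15) in the successive intervals and -0.42 (SE 0.30) over both, with adjusted p-values of 0.384, 0.989 and 0.342 by edgeR's quasi-likelihood test. The neighbours Aspn, Omd and Ogn share at most 0.297% of their exon bases with Cenpp. Ecm2, which has the same repeats, had 10, 7 and 1 reads, then 16, 3 and 10, then 19, 18 and 10, and did not pass the test in E12.5 vs. E11.5 (0.80, SE 0.54, adjusted p = 0.349). Tes3-ps, which lies within Cenpp before Ecm2, had a log2 fold change of -0.15 (SE 0.35, adjusted p = 0.803) in the same comparison.

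On chromosome 10, Dcn (chr10:97479609-97518143), Lum (chr10:97565128-97572703), Kera (chr10:97606879-97613692) and Epyc (chr10:97644068-97682454) span 202.8 kb on the plus strand. These neighbours differed in course, since Dcn had 6.53% of its CPM gain in the first interval, Kera 19.9% and Lum 42.2%. On chromosome 1, Prelp (chr1:133910304-133921414) and Fmod (chr1:134037254-134048277) lie on opposite strands, with Optc beside Prelp, within 151.1 kb. Bgn (chrX:73483602-73495933) and Chad (chr11:94565047-94569127) have no other family gene nearby.

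**Figure D4:**
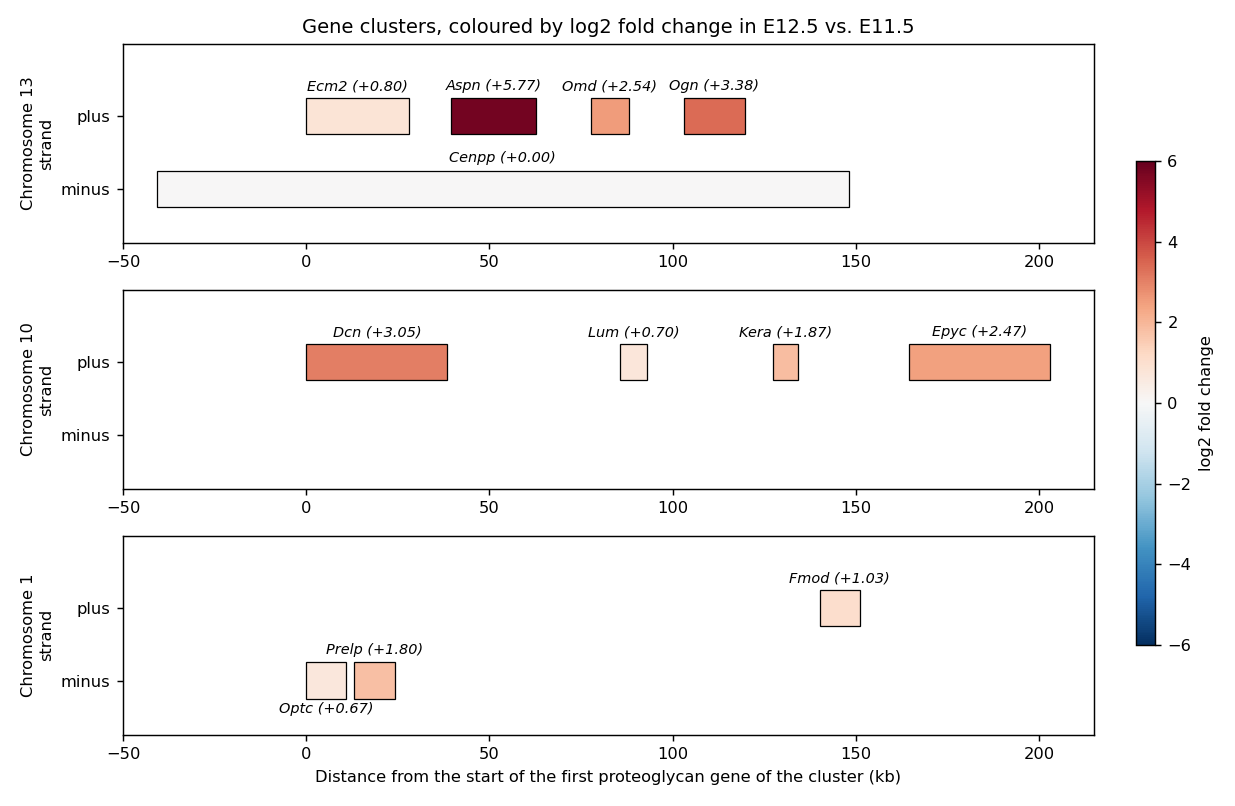
The 3 gene clusters, with each gene as a box at its distance in kb from the start of the first family gene (horizontal axis), on the strand shown, coloured by its log2 fold change in E12.5 vs. E11.5, which is also printed. Aspn, Omd and Ogn are coloured within the uncoloured Cenpp (0.00), and Lum (0.70) is pale between Dcn (3.05) and Kera (1.87).

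The sequences before the start site are shown for Ogn and Aspn, the members with the widest changes. They are also shown for Bgn, which had the highest share of its CPM gain in the first interval. They are the 250 bases before the RefSeq start on GRCm38.p6, from a table that holds 8 of the 10 genes, all but Dcn and Lum. On the plus strand they lie at chr13:49607765-49608014 for Ogn, chr13:49544193-49544442 for Aspn and chrX:73483351-73483600 for Bgn. Capitals mark matches, on either strand, to TATAAA for a TATA box, TGTGGT for RUNX, TGANTCA for AP-1, GGAATG for TEAD and GGGCGG for a GC box.
Ogn: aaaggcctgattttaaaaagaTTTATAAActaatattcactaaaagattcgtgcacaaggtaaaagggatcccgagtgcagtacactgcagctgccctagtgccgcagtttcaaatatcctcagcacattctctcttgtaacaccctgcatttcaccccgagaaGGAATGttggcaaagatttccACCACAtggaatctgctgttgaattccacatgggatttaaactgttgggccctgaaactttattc
Aspn: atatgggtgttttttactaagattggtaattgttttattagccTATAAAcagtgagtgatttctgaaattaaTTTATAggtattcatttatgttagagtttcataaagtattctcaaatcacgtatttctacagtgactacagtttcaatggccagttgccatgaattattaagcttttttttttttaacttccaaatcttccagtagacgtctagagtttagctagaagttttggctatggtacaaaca
Bgn: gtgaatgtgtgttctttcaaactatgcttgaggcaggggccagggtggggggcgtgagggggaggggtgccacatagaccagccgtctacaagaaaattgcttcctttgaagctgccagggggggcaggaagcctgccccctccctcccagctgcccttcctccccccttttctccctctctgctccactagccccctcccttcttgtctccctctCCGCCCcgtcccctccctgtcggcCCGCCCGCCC
The GC content of the 250 bases was 42.0% for Ogn, 30.0% for Aspn and 64.4% for Bgn. In windows that also include the 50 bases after the start, it was 42.3%, 31.0% and 63.7%, against a median of 52.7% (quartiles 45.7 and 61.7) over 32851 windows of all genes. TATAAA occurred in 3 of the 8 windows, at -229 and -227 in Ogn (overlapping matches on opposite strands), -207 and -178 in Aspn and -28 in Chad, and in 13.6% of all windows. A TATA box that works as such lies close to the start, and of these matches the one in Chad was nearest to it. GGGCGG occurred in Bgn (-34, -10 and -6, the last 2 overlapping) and Chad, and in 35.7% of all windows. TGTGGT (-65) and GGAATG (-86) occurred in Ogn and in no other of the 8, and in 16.8% and 14.7% of all windows, and TGANTCA was in none of the 8 and in 7.81% of all. A match of letters is no evidence of binding.

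Of the 9 further genes of leucine-rich repeat proteoglycans, 2 of the 6 tested were upregulated in E12.5 vs. E11.5, against 4.14% of all genes tested. Chadl, a relative of Chad in cartilage, had 23, 26 and 21 reads, then 35, 18 and 24, then 126, 142 and 132. Its log2 fold change was -0.06 (SE 0.35, adjusted p = 0.931) in the first interval and 2.49 (SE 0.27, adjusted p = 0.000296, edgeR's quasi-likelihood test) in the second, and the difference between the intervals was not tested. Of its exon bases 19.5% are shared with L3mbtl2. Epyc (epiphycan), another cartilage member, had 2, 3 and 0 reads, then 4, 3 and 3, then 17, 15 and 20, and rose by 2.47 (SE 0.46, adjusted p = 0.00683) in E12.5 vs. E11.5, with 40.6% of its exon bases shared with Gm10754. Tsku (tsukushi), a secreted inhibitor of BMP and Wnt signals, was the most abundant of the 9 at 19.8 ± 3.15, 28.6 ± 1.77 and 31.7 ± 1.44 CPM, and its 0.53 (SE 0.15) in E11.5 vs. E10.5 did not pass the test (adjusted p = 0.0548). Podnl1 had 5, 0 and 0 reads, then none, then 15, 10 and 8, which was 12.1-fold higher than a floor of 3 reads over the E11.5 libraries, with a lower 95% exact counting limit of 9.30-fold. Podn (0.53, SE 0.37, adjusted p = 0.363) and Optc (0.67, SE 0.55, adjusted p = 0.440) did not pass the test in E12.5 vs. E11.5, and Nyx and Nepn were not tested because of few reads.

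Most genes of a list of fibril-forming collagens and collagens that these proteins bind were upregulated over both intervals. Of 16 collagen genes, 10 were upregulated in the first interval, 7 in the second and 12 over both, against 3.46%, 4.14% and 9.97% of all genes tested. Col24a1 was first upregulated and then downregulated. The largest changes over both intervals were those of Col6a1 (log2 fold change 4.64, SE 0.41, adjusted p = 2.4e-05), Col6a2 (4.39, SE 0.41, adjusted p = 3.43e-05), Col1a1 (4.20, SE 0.36, adjusted p = 2.01e-05) and Col6a3 (3.54, SE 0.44, adjusted p = 0.000222), all by edgeR's quasi-likelihood test. Col1a1 went from 41.5 ± 19.7 to 266.8 ± 58.8 and 756.8 ± 198 CPM, and its libraries did not overlap between stages. The first count was 4, 6 and 5 when replicate 1, 2 and 3 of E11.5 were left out in turn. The median log2 fold change of the 16 was 1.19 in the first interval and 0.77 in the second.

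Of 21 chondroitin and dermatan sulfate genes tested, which build the sugar chains, 3 (14.3%) were upregulated over both intervals, against 9.97% of all genes tested, and 1, the sulfotransferase gene Chst7, was downregulated (-1.90, SE 0.38, adjusted p = 0.00466). The upregulated genes were Csgalnact1 (1.56, SE 0.35, adjusted p = 0.00803), Chsy3 (1.20, SE 0.37, adjusted p = 0.0353) and Chst14 (1.09, SE 0.27, adjusted p = 0.0153), the last of which sulfates dermatan. The median log2 fold change of the 21 was 0.19, against -0.0063 over all genes tested. Of 8 keratan sulfate genes, 2, the sulfotransferases Chst2 (2.08, SE 0.27, adjusted p = 0.000319) and Chst1 (1.38, SE 0.27, adjusted p = 0.00369) were upregulated. Chst2 passed in both intervals, but in the first it lay on the threshold (1.00, SE 0.27, adjusted p = 0.0489) and was lost when replicate 2 or 3 of E10.5 or any library of E11.5 was left out.

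Among 15 growth factors and receptors that members of the family bind, 5 were upregulated and 1 downregulated in E12.5 vs. E10.5, against 9.97% and 5.08% of all genes tested. Bmp2, a ligand of bone formation that biglycan binds, increased by 1.63 (SE 0.33, adjusted p = 0.0178) and 1.64 (SE 0.21, adjusted p = 0.000653) in the successive intervals. Tgfb2, a TGF-beta ligand, increased in the first interval (1.90, SE 0.18, adjusted p = 0.00146), and so did the receptor gene Egfr (1.42, SE 0.15, adjusted p = 0.0019). Mstn (myostatin) fell by 3.98 on the log2 scale (SE 0.66, adjusted p = 0.00146) over both intervals, to only 2, 5 and 0 reads at E12.5. Of the 9 proteases and helpers of collagen maturation tested, 5 were upregulated over both intervals, against the same 9.97%, with the largest changes in Mmp9 (3.17, SE 0.55, adjusted p = 0.00193), Tll1 (2.86, SE 0.39, adjusted p = 0.000415), Adamts5 (2.06, SE 0.24, adjusted p = 0.000164) and Mmp14 (1.22, SE 0.19, adjusted p = 0.000945). Mmp9 had only 1, 4 and 8 reads at E10.5 and did not pass the low-count filter in the first interval. Tll1 encodes a relative of the BMP1 protease, which trims the N-terminus of biglycan, decorin and osteoglycin.

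**Figure D5:**
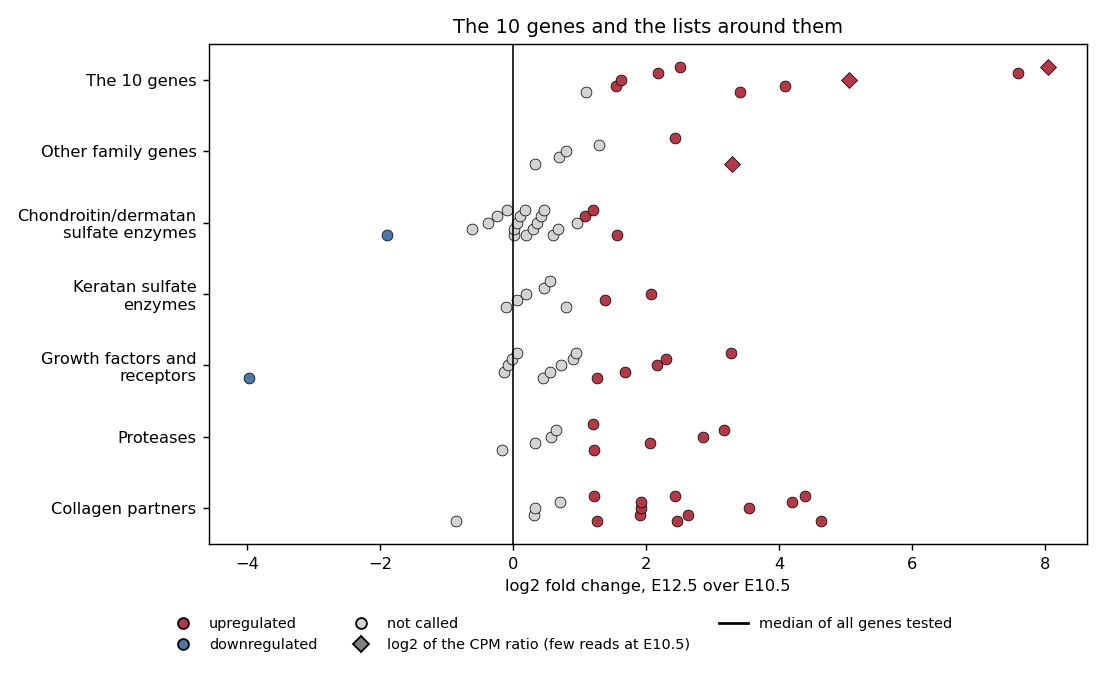
Log2 fold change in E12.5 vs. E10.5 (horizontal axis) of every tested gene of the family and of each list, coloured by whether it was called. Diamonds are the log2 of the CPM ratio for Aspn, Omd and Epyc, which had 3 reads or fewer in each E10.5 library, and the line is the median of all genes tested (-0.0063). The collagen genes reach 4.64 and the chondroitin and dermatan sulfate enzymes reach 1.56.

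Markers of several cell types also differed between the stages. The summed CPM of 8 fibroblast markers was 260.5 to 439.8, then 675.5 to 747.4, then 812.8 to 993.7, and 5 of the 6 tested were upregulated over both intervals. In E12.5 vs. E11.5, 2 of the 6, Postn and Twist2, were upregulated, against 4.14% of all genes tested. The other 4 were not called, with Fbln1 (-0.18, SE 0.12) and Thy1 (-0.39, SE 0.21) below 0. The summed CPM of 4 tendon markers was 11.2 to 15.4, 20.5 to 23.3 and 36.3 to 51.6, with 2 of 4, Scx and Tnmd, upregulated over both intervals. Tnmd had 0 or 1 reads in each library of E10.5 and E11.5 and 167, 137 and 176 reads at E12.5. Neither Mkx (log2 fold change -0.08, SE 0.17) nor Thbs4 (-1.03, SE 0.37) was called in E12.5 vs. E11.5. All E12.5 libraries of Thbs4 lay below those of E11.5. For 8 osteoblast markers the sum was 27.3 to 30.7, 65.4 to 104.7 and 157.9 to 185.3. Over both intervals 3 of 6 tested were upregulated (Runx2, Sp7 and Alpl) and 1, Ibsp, was downregulated (-2.73, SE 0.54). The late marker Dmp1 stayed at 3 reads or fewer in every library, and Bglap had 2, 0 and 1 reads at E12.5. All E12.5 libraries of Phex lay below those of E11.5 (-1.11, SE 0.35), but it was not called. The 11 facial mesenchyme markers summed to 1341 to 2191, 2916 to 3111 and 2894 to 3309, and 3 were upregulated and 1 downregulated over both intervals. For 10 epithelial markers the sums were 450.9 to 818.5, 495.8 to 514.1 and 752.5 to 830.3. Over both intervals 3 of the 10 were upregulated and 1 downregulated, against 9.97% and 5.08% of all genes tested. In E12.5 vs. E11.5 only the keratin genes Krt5, Krt14 and Krt15 were upregulated, and the other 7 epithelial markers were not called. Neuronal markers (6 genes) summed to 150.7 to 179.8, 173.6 to 198.0 and 265.0 to 301.3, and endothelial markers (6 genes) to 108.2 to 276.7, 271.1 to 284.9 and 225.0 to 294.1. Blood genes summed to 2824 to 3811, 4550 to 4972 and 4308 to 5579, macrophage genes to 19.9 to 30.7, 27.5 to 31.2 and 33.4 to 34.8, and muscle genes to at most 6.55. The part of these markers in the values of the proteoglycan genes was not tested.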

How the data were processed

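RNA was measured in 9 libraries of mouse lambdoidal junction tissue, 3 per stage, grouped by the stage in the labels. The authors mapped reads with HISAT2 2.0.5 (submitters' processing notes) to GRCm38/mm10 and counted them per gene with featureCounts. The authors deposited whole-number read counts per gene, without normalization, and FPKM values, which they computed from counts and gene length. The deposited table also holds gene lengths and the log2 fold changes and p-values of the authors' own comparisons, which were not used.

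The 6 libraries of a comparison were fitted together with filterByExpr, TMM scaling and edgeR 4.0.16 (R 4.3.3, limma 3.58.1), by the quasi-likelihood test with Benjamini-Hochberg adjustment over all genes tested. Calls needed adjusted p ≤ 0.05 and a log2 fold change of 1 or more in size. The SE was derived from the fold change and the F statistic. The fitting code was tested on simulated data. CPM are on TMM-scaled sizes of all 9 libraries. FPKM were used only to compare genes with each other. With 3 libraries against 3, an exact two-sided permutation p cannot be below 0.1. Replicates are separate pools, and p-values measure the spread between them. Gene coordinates are those of the table, in which 98.26% of the 54409 identifiers found in GENCODE vM21 had the same coordinates. GC content and exon overlap are from that annotation.

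The 10 genes and all lists were chosen with earlier results of these data known. Named besides them are all further family genes, up to 4 genes per list with the largest called changes in E12.5 vs. E10.5, the 3 genes most like each member (Pearson's r of log2 CPM over 9 libraries), and cluster neighbours. The result of 1 gene named by this rule is not reported here. Marker genes and the antisense or overlapping genes were named after their values were seen. Alternatives were DESeq2's size factors, upper quartile scaling, DESeq2 1.42.0, other low-count filters, a joint fit of 9 libraries, a block for the replicate number, each library left out and, for likeness, another prior count. Python 3.11.15 (numpy 2.4.6, pandas 2.3.3, scipy 1.17.1, matplotlib 3.10.9) was used for tables and plots. Depth was 16581009 to 20836804 counts per library, and intervals cover counting error only.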

Additional observations from a re-analysis of the deposited data

How the results depend on the processing

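Across the alternatives, 309 of the single log2 fold changes of the 10 genes kept their direction and their side of the thresholds, 14 lost the call, 3 gained it and 0 changed sign. The 14 were of Fmod, Prelp, Chad and Kera in E12.5 vs. E11.5 with a library left out, and the cause was not tested. Requiring at least 10 counts in every library left 1 of 2, 4 of 8 and 4 of 9 calls among the 10 genes in the first interval, the second and over both, and 1 of 2 among the further family genes in each of the later comparisons, since fewer genes were tested. The 1 chain synthesis gene upregulated in E11.5 vs. E10.5, Chst2 at the threshold, became 0 under upper quartile scaling, the filter of 10 counts, the fit of all 9 libraries and the replicate block.

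With a library left out, DEGs (up and down) numbered 395 to 1592 in E11.5 vs. E10.5, against 954 with all, 502 to 1181 in the second interval, against 806, and 1895 to 2738 over both, against 2392. In the first, replicate 1 of E11.5 gave the lowest number, replicate 3 of that stage 453, and replicate 3 of E10.5 the highest. In the second, replicate 2 of E11.5 gave 502 and replicate 1 of E12.5 gave 512. Calls among the 10 genes numbered 2 to 4, 4 to 8 and 9 to 9 in the same order, collagen calls 4 to 9, 5 to 8 and 11 to 12, chain synthesis calls 0 to 1, 0 to 1 and 3 to 5, and those of the further family genes 0 to 0, 2 to 3 and 2 to 2. Where a stage kept 2 libraries, its spread was pooled with that of the other stage.

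The deviations of same-numbered libraries correlated between -0.151 and 0.22, and those of differently numbered libraries between -0.219 and 0.223. In E12.5 vs. E10.5 the same-numbered pairs gave 0.178, 0.07 and 0.22. Such values do not settle whether the replicate numbers pair the libraries. With the replicate block the calls among the 10 genes were 2, 8 and 9, as without it. Of the 30 genes most like a member, 22 stayed among the 3 closest with a prior count of 0.5. Depth limits the E10.5 values of Aspn and Omd, at 3 reads or fewer per library, of Ogn, at 4 to 9 reads, and those of Chad, Prelp and Kera.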
